A study of Oryzias latipes with 48 samples.

Results

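The MCM2 to MCM7 genes and pcna, whose proteins open and copy DNA in dividing cells, were followed through the year in the ventral brain of medaka (Oryzias latipes). The genes were chosen by their description in the deposited table, as those annotated as a replication licensing factor Mcm, a minichromosome maintenance complex component or proliferating cell nuclear antigen, leaving out binding proteins. This gave 8 of 26167 genes: pcna (gene ID 101155033), mcm2 (101173930), mcm3 (101165859), mcm4 (101173977), mcm5 (101167880), mcm6 (101159855), mcm7 (101165815) and mcm3ap (101157016). The fish lived outdoors in natural light and temperature, and RNA came from the ventral telencephalon with the hypothalamus and the pituitary. Sampling ran over 24 h at each of 4 dates, the equinoxes of spring and autumn and the solstices of summer and winter. Each season has 2 libraries at each of 6 clock hours (2, 6, 10, 14, 18 and 22), so 12 libraries per season and 48 in all. The sources used here do not give the strain, genotype, sex or age of the fish, or how many fish went into a library. The season of a library cannot be told apart from its year, collection day and library batch.

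MCM2 to MCM7 form a ring of 6 related subunits that is loaded at replication origins in the G1 phase and then unwinds DNA as the motor of the replicative helicase. PCNA is the sliding clamp that holds DNA polymerases on the template. Transcripts of both are widely used as markers of cells in cycle, and in the brain of adult teleost fish such cells lie mainly along the ventricles, where radial glia act as neural stem cells. PCNA also serves DNA repair. The remaining gene, mcm3ap, was caught by its name: its product is an mRNA export factor that contains a region able to acetylate MCM3 in mammals, and it is not a subunit of the helicase.

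The authors deposited FPKM values, which scale fragments to transcript length and library total, so levels may be compared between genes only roughly. All 8 genes were above 0 in all 48 libraries. Averaged over the libraries, pcna had the highest level at 19.1 FPKM. The others followed in the order mcm3ap at 7.29, mcm7 at 4.03, mcm2 at 1.89, mcm3 at 1.16, mcm4 at 1.15, mcm5 at 0.855 and mcm6 at 0.744 FPKM. Genes with a mean of at least 1 FPKM were tested, which kept 16622 genes and 6 of the 8. The genes mcm5 and mcm6 fell below that mean, and their tests come from a fit over all 26167 genes with no filter. The gene mcm3 passed through its summer and autumn values, as its means in spring and winter were below 1 FPKM. The gene mcm4 passed through its spring, autumn and winter values, as its summer mean was 0.889 FPKM. Differences are on the log2(FPKM + 1) scale, which understates changes of genes near or below 1 FPKM. Adjusted p-values are from limma with Benjamini-Hochberg adjustment over all genes of the fit, and a gene was called at an adjusted p below 0.05.

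The relative depth of the libraries lay between 0.928 and 1.08 of their median, as read from the whole-fragment steps of low values. The absolute depth is not known. On the second principal component of all tested genes, 3 spring libraries stood apart from the other spring libraries: library 1 at hour 2, library 1 at hour 18 and library 2 at hour 22. Their scores were 21.1 to 29.6, against 2.49 to 13.9 in the other 9 spring libraries, and the next highest of the 48 were 2 summer libraries at 19.1 and 19.6. In these 3 the median of mcm7 was 2.73 FPKM, against 3.44 FPKM in the other 9 spring libraries, that of mcm3 was 0.58 against 0.86 FPKM, and that of mcm4 was 0.6 against 1.2 FPKM. The medians of pcna (11.34 against 12.85 FPKM) and mcm5 (0.39 against 0.5 FPKM) were also lower. Those of mcm2 (1.49 against 1.47 FPKM), mcm6 (0.48 against 0.45 FPKM) and mcm3ap (6.81 against 6.83 FPKM) were close. Season differences were large across the transcriptome: 88.7% of tested genes differed between seasons. All 6 tested MCM and PCNA genes were among them, a share to be read against that background. Neuron and pituitary markers were abundant in every library, with summed levels of at least 2515 and 2093 FPKM, although prl, the prolactin entry among the pituitary markers, averaged at most 0.265 FPKM in any season.

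The clamp gene pcna was higher in summer and autumn than in spring and winter, with means 1.73 to 1.97 times as high, and every summer and autumn library was above every spring and winter library. In the pairs of 1 of these seasons from each side, 18.4% to 23.7% of all tested genes had no overlap between 12 and 12 libraries. The share without overlap over all 48 libraries was not computed. It spanned 10.72 to 14.38 FPKM in spring (median 12.5), 20.85 to 30.18 FPKM in summer (median 23.9), 19.25 to 30.92 FPKM in autumn (median 24.5) and 12.44 to 16.05 FPKM in winter (median 14.0). Its means were 12.6 ± 1.26, 24.9 ± 3.55, 24.5 ± 3.81 and 14.2 ± 1.16 FPKM in that order of seasons (SD, n = 12 each). Summer and autumn together exceeded spring and winter by 0.83 ± 0.04 on the log2 scale (SE, adjusted p = 4.27e-17), and 47.2% of all tested genes were called higher in the same comparison. Without the 3 spring libraries that stood apart the difference was 0.81. Summer and autumn did not differ by the test (0.02 ± 0.06, adjusted p = 0.786). Winter was above spring by a smaller amount, 0.16 ± 0.06 (adjusted p = 0.0202), and this call was lost without the 3 spring libraries (0.12, adjusted p = 0.123). It was also lost without library 2 of spring at hour 22 alone (0.14, adjusted p = 0.0544) or library 2 of winter at hour 10 alone (0.14, adjusted p = 0.0502). In bulk tissue, fewer cells with a transcript and less of it per cell cannot be told apart. The labels do not say whether the 2 libraries of a group are from different fish, and the p-values therefore measure library-to-library spread, which may be technical.

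**Figure D1:**
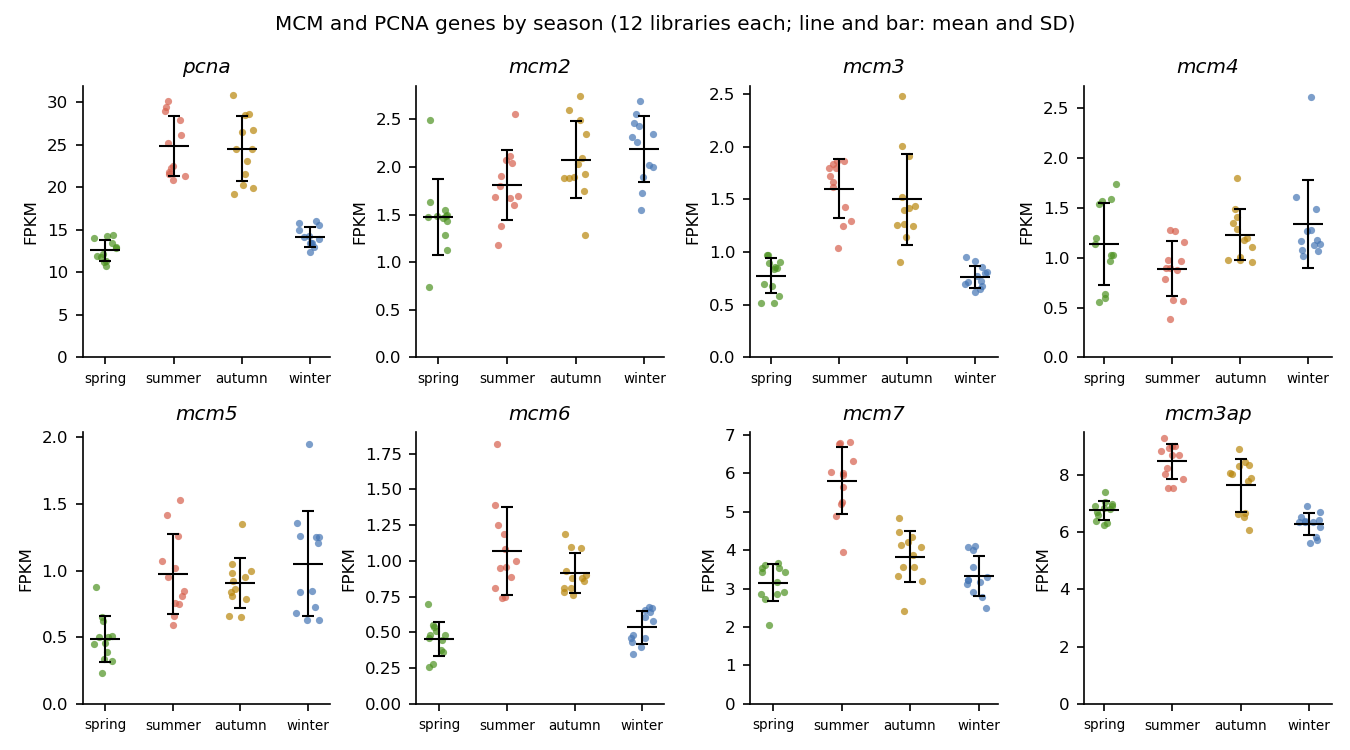
FPKM of each of the 8 genes (vertical axes, each from 0) in the 12 libraries of each season (points), with the mean and SD in black. The genes pcna, mcm3 and mcm6 stand at 2 levels, high in summer and autumn and low in spring and winter, mcm7 is highest in summer, mcm5 is low in spring, and mcm4 is lowest in summer.

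Among the helicase subunits, mcm3 and mcm6 had the same 2-level pattern as pcna. MCM3 lies between MCM5 and MCM7 in the ring. The gene mcm3 spanned 0.52 to 0.97 FPKM in spring (median 0.845), 1.04 to 1.87 FPKM in summer (median 1.70), 0.91 to 2.48 FPKM in autumn (median 1.41) and 0.62 to 0.95 FPKM in winter (median 0.75). Summer did not overlap with spring or winter, while the lowest autumn library, at hour 14, lay within the spring and winter ranges. In the fit without a filter, summer and autumn exceeded spring and winter by 0.52 ± 0.03 (adjusted p = 1.67e-14). There 37.1% of all 26167 genes were called higher. The fit with the filter gave the same difference (adjusted p = 3.17e-14), but mcm3 passed that filter through its values in the same seasons. On the FPKM scale the summer mean was 2.09 times the winter mean and 2.07 times the spring mean, at all 6 clock hours in the same direction.

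MCM6 sits between MCM2 and MCM4 in the ring. Its gene spanned 0.26 to 0.70 FPKM in spring (median 0.47), 0.74 to 1.82 FPKM in summer (median 0.98), 0.76 to 1.19 FPKM in autumn (median 0.88) and 0.35 to 0.68 FPKM in winter (median 0.53). Every summer and autumn library was above every spring and winter library, but narrowly, with a lowest value of 0.74 FPKM against a highest of 0.70 FPKM. The share of all 26167 genes without such overlap was not computed. In the fit without a filter, mcm6 was higher in summer and autumn than in spring and winter by 0.41 ± 0.03 (adjusted p = 6.9e-13), where 37.1% of all 26167 genes were called higher. The summer mean was 2.35 times the spring mean and 2.00 times the winter mean. The difference between summer and autumn did not pass the test in this fit (0.10 ± 0.04, adjusted p = 0.0624), and passed it in the fit of the 2 seasons alone (adjusted p = 0.0383) and in 6 of 48 fits without 1 library.

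The gene of MCM7, which lies between MCM3 and MCM4, had the highest level of the 6 subunits in every season and was highest in summer. It spanned 2.06 to 3.67 FPKM in spring (median 3.30), 3.94 to 6.82 FPKM in summer (median 5.98), 2.41 to 4.84 FPKM in autumn (median 3.97) and 2.50 to 4.11 FPKM in winter (median 3.23). Summer did not overlap with spring, and it overlapped with winter only through its lowest library, library 2 at hour 10. Summer exceeded autumn by 0.49 ± 0.07 (adjusted p = 6.08e-06), winter by 0.65 ± 0.07 (adjusted p = 7.4e-09) and spring by 0.71 ± 0.07 (adjusted p = 1.43e-09). Spring was lower than autumn by a difference of -0.21 ± 0.07 (adjusted p = 0.0115). That call was lost without the 3 spring libraries that stood apart (-0.12, adjusted p = 0.148), and under scaling by median ratios (-0.15, adjusted p = 0.0664) and quantile normalization (-0.13, adjusted p = 0.11). Autumn minus winter was 0.15 ± 0.07 and was not called (adjusted p = 0.0654), although it was with array weights (adjusted p = 0.0317), without the 3 spring libraries (0.0455), in the fit of the 2 seasons alone (0.0315) and in 7 of 48 fits without 1 library. Winter and spring did not differ by the test either (0.06 ± 0.07, adjusted p = 0.518).

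The genes mcm2 and mcm5, which encode the neighbours between which the ring opens, followed another course with a low point in spring. The gene mcm2 spanned 0.74 to 2.49 FPKM in spring (median 1.48), 1.18 to 2.56 FPKM in summer (median 1.75), 1.29 to 2.75 FPKM in autumn (median 1.98) and 1.55 to 2.69 FPKM in winter (median 2.29). All 4 ranges overlapped. Winter exceeded spring by 0.38 ± 0.07 (adjusted p = 0.00013), and spring was lower than autumn by a difference of -0.32 ± 0.07 (adjusted p = 0.000295). Summer lay between, above spring by 0.19 ± 0.07 (adjusted p = 0.0217) and below winter by a difference of -0.19 ± 0.07 (adjusted p = 0.0233). Both of these summer calls were weak. The one against spring was lost without the 3 spring libraries (0.17, adjusted p = 0.0562), under both scalings (0.14, adjusted p = 0.0782, and 0.13, adjusted p = 0.11), and in 4 of 48 fits that left out 1 library, where it was between 0.15 and 0.16. Those libraries were library 1 of spring at hour 2, library 2 of spring at hour 14, library 1 of summer at hour 10 and library 2 of summer at hour 22. The one against winter was lost in 6 of 48 such fits, where it lay between -0.17 and -0.14. Those libraries were library 2 at hour 10 and library 1 at hour 22 in summer, and library 2 at hours 6, 10 and 18 and library 1 at hour 22 in winter.

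The gene mcm5 spanned 0.23 to 0.88 FPKM in spring (median 0.48), 0.59 to 1.53 FPKM in summer (median 0.90), 0.65 to 1.35 FPKM in autumn (median 0.89) and 0.63 to 1.95 FPKM in winter (median 1.03). The spring libraries were low and the other 3 seasons overlapped broadly. In the fit without a filter winter exceeded spring by 0.45 ± 0.07 (adjusted p = 2.5e-05), a 2.16-fold ratio of the FPKM means. Summer exceeded spring by 0.40 ± 0.07 (adjusted p = 2.88e-05), and spring was lower than autumn by a difference of -0.36 ± 0.07 (adjusted p = 0.000124). The differences of summer from winter (-0.05 ± 0.07, adjusted p = 0.591), of autumn from winter (-0.09 ± 0.07, adjusted p = 0.307) and of summer from autumn (0.04 ± 0.07, adjusted p = 0.722) were not called.

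The gene mcm4, whose product belongs to the catalytic core with MCM6 and MCM7, ran the other way in summer. It spanned 0.56 to 1.74 FPKM in spring (median 1.09), 0.39 to 1.28 FPKM in summer (median 0.90), 0.96 to 1.80 FPKM in autumn (median 1.19) and 1.02 to 2.61 FPKM in winter (median 1.18). The ranges overlapped, with 1 winter library, library 2 at hour 22, at the top. Summer was lower than winter by a difference of -0.30 ± 0.08 (adjusted p = 0.00168) and lower than autumn by a difference of -0.25 ± 0.08 (adjusted p = 0.0173). Because mcm4 passed the filter through its values outside summer, the fit without a filter is given too. It gave the same differences (adjusted p = 0.00216 and 0.0226). Summer minus spring was -0.17 ± 0.08 and was not called (adjusted p = 0.0721). It was called lower without the 3 spring libraries (-0.27, adjusted p = 0.00609), under scaling by median ratios (-0.20, adjusted p = 0.0265) under quantile normalization (-0.19, adjusted p = 0.0455) and in 5 of 48 fits without 1 library.

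The gene mcm3ap had a narrow spread and a modest summer peak. It spanned 6.26 to 7.40 FPKM in spring (median 6.82), 7.55 to 9.30 FPKM in summer (median 8.70), 6.07 to 8.92 FPKM in autumn (median 7.95) and 5.61 to 6.92 FPKM in winter (median 6.37). Summer did not overlap with spring or winter, whereas the autumn libraries reached down into both. Summer exceeded winter by 0.38 ± 0.04 (adjusted p = 8.45e-09) and autumn by 0.14 ± 0.04 (adjusted p = 0.0121). Spring was lower than autumn by a difference of -0.15 ± 0.04 (adjusted p = 0.00354), a call that was lost under scaling by median ratios (-0.07, adjusted p = 0.133) and quantile normalization (-0.07, adjusted p = 0.151). Winter minus spring was -0.09 ± 0.04 and was not called (adjusted p = 0.0797), but it was under both scalings (-0.11 each, adjusted p = 0.0343 and 0.0331) and in the fit of the 2 seasons alone (adjusted p = 0.0393).

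**Figure D2:**
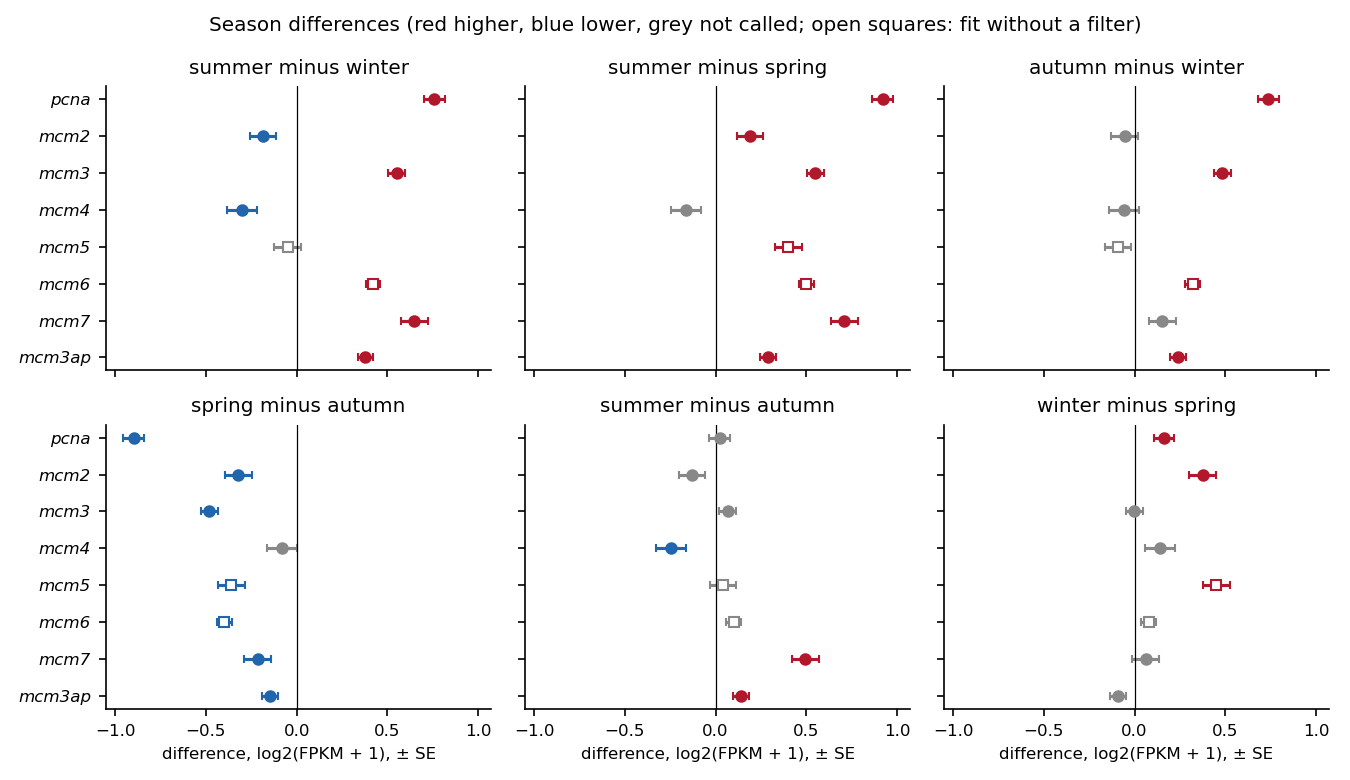
Difference on the log2(FPKM + 1) scale with its SE (horizontal axes) for each gene in the 6 pairs of seasons; red is called higher in the first-named season, blue lower, grey not called, and open squares mark mcm5 and mcm6 from the fit without a filter. In summer minus winter, pcna, mcm3, mcm6, mcm7 and mcm3ap lie to the right of 0, mcm2 and mcm4 to the left, and mcm5 at -0.05.

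Counted over the 6 tested genes, summer minus winter called 4 higher and 2 lower. Among all tested genes 74.9% were called there, 42% higher and 32.9% lower. Summer minus spring called 5 higher and 0 lower (73.8% of all genes called, 43.9% higher and 29.9% lower). Spring minus autumn called 0 higher and 5 lower (72.4% of all, 27.3% higher and 45.1% lower). Autumn minus winter called 3 higher and 0 lower (71.7%, 42.4% and 29.3%), summer minus autumn 2 higher and 1 lower (43.6%, 19.4% and 24.2%), and winter minus spring 2 higher and 0 lower (49.4%, 28.1% and 21.3%). In summer and autumn minus spring and winter, pcna, mcm3, mcm7 and mcm3ap were called higher and none of the 6 lower, where 79.4% of all genes were called, 47.2% higher and 32.2% lower. Over all 8 genes in the fit without a filter, 7 were called in summer minus winter (59.5% of 26167 genes), 7 in spring minus autumn (56.4%), 7 in summer minus spring (58.2%), 3 in summer minus autumn (31%), 4 in autumn minus winter (56%), 3 in winter minus spring (35.2%), 6 in summer and autumn minus spring and winter (64.3%) and 8 in any season (71.8%). With so few genes, and most genes of the transcriptome called, little can be read from these counts. The genes without overlap between 12 and 12 libraries were 4 of 6 in summer minus spring (19.7% of all genes), 3 of 6 in summer minus winter (23.7%), pcna alone in autumn minus winter (18.7%) and in spring minus autumn (18.4%), and none in summer minus autumn (0.74%) or winter minus spring (2.06%). The gene mcm3 is among the 4 and among the 3, and in the counts of calls above. It passed the filter through its summer and autumn values, so its part in these counts follows partly from that choice. The same holds for mcm4, called lower in summer minus winter and summer minus autumn, which passed through its values outside summer. On the axis of summer and autumn against spring and winter, mcm2 had a difference of 0.07 ± 0.05 (adjusted p = 0.233) and mcm4 one of -0.11 ± 0.06 (adjusted p = 0.0816). That of mcm4 was called lower without the 3 spring libraries (-0.16, adjusted p = 0.0105), under scaling by median ratios (-0.15, adjusted p = 0.0196) and quantile normalization (-0.14, adjusted p = 0.0332), and in 5 of 48 fits that left out 1 library. Those were libraries 1 of spring at hours 2, 10 and 18, library 1 of autumn at hour 14 and library 1 of winter at hour 22, and the values lay between -0.14 and -0.13.

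Because the subunits took different courses, the makeup of the MCM2 to MCM7 transcripts differed between seasons, although the proteins act as a ring with 1 copy of each. Their summed level was 7.48 ± 1.18 FPKM in spring, 12.1 ± 1.33 in summer, 10.5 ± 1.02 in autumn and 9.21 ± 1.15 in winter (SD, n = 12 each). In summer and autumn mcm3 made up 13.8 ± 2.95% and mcm6 8.79 ± 1.85% of that sum, against 9.40 ± 1.73% and 6.01 ± 1.56% in spring and winter (SD, n = 24 each). The share of mcm4 was 9.52 ± 3.04% in summer and autumn against 14.7 ± 4.03% in spring and winter. Each of these 3 differences had the same direction at all 6 clock hours. The share of mcm2 was 17.3 ± 3.74% in summer and autumn against 21.7 ± 3.96% in spring and winter, and it too was lower at all 6 clock hours. By season it averaged 19.6% in spring, 14.8% in summer, 19.9% in autumn and 23.8% in winter, so that autumn and spring were close. The share of mcm7 was higher in summer and autumn at 4 of the 6 hours, and that of mcm5 at 3. That of mcm7 averaged 42.5%, 47.96%, 36.6% and 36.1% in the same order of seasons, and that of mcm5 6.41%, 7.96%, 8.69% and 11.3%. The level of pcna relative to the mean MCM subunit was 13.3 ± 2.27 in summer and autumn, against 9.86 ± 1.69 in spring and winter. These shares are sums over the chosen genes and are given as a description, with no test. They are bound together, so a share can fall while the level of its gene does not. The summed level averaged 11.3 FPKM in summer and autumn and 8.34 FPKM in spring and winter. The level of mcm2 was not called different between these seasons (0.07 ± 0.05, adjusted p = 0.233).

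**Figure D3:**
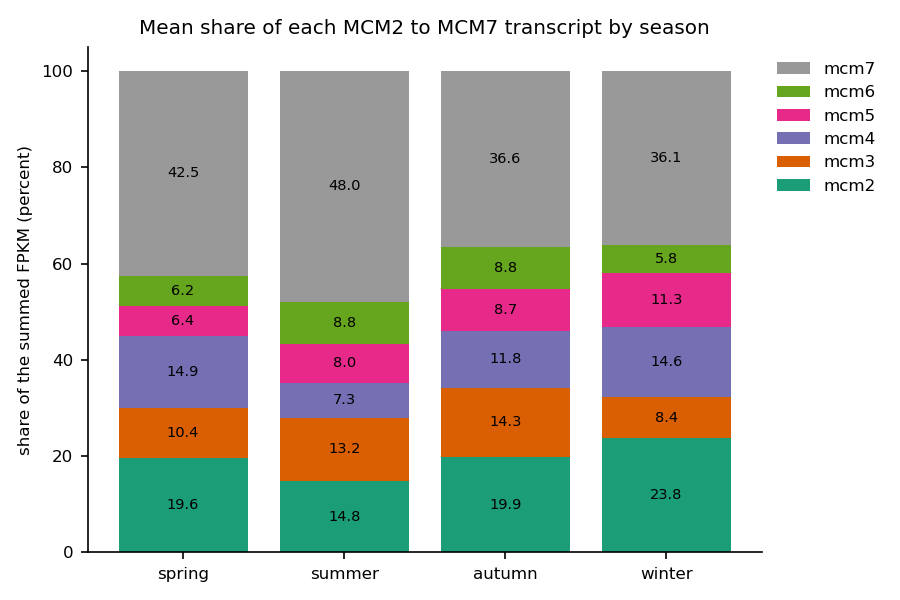
Mean percent of the summed FPKM of mcm2 to mcm7 that each gene contributed in the 12 libraries of each season. The share of mcm4 was 7.26% in summer and between 11.8 and 14.9% in the other seasons.

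Over the day, pcna was the 1 tested gene of the 6 with a called daily curve. Its levels at clock hours 2, 6, 10, 14, 18 and 22 averaged 23.9, 22.2, 25.7, 29.8, 26.6 and 21.1 FPKM in summer and 21.5, 22.4, 23.0, 28.7, 28.5 and 23.1 FPKM in autumn (mean of 2 libraries each). Both seasons were highest in the afternoon, and the 2 summer libraries at hour 14, with 29.46 and 30.18 FPKM, were above the other summer libraries. A 24 h cosine fitted in each season gave an amplitude of 0.21 ± 0.06 on the log2 scale with a peak at 15.9 h in autumn (SE, adjusted p = 0.0182, 16.1% of all genes called), and one of 0.19 ± 0.06 with a peak at 14.0 h in summer (adjusted p = 0.0471, 13.6% of all genes called). Spring and winter gave amplitudes of 0.09 and 0.06 that were not called (adjusted p = 0.555 and 0.764; 2.59% and 1.53% of all genes were called). Averaged over the seasons the amplitude was 0.10 ± 0.03 with a peak at 15.4 h (adjusted p = 0.0317; 13.5% of all genes called). The difference between the seasonal curves did not pass the test for pcna (adjusted p = 0.0757; 21.5% of all genes called). It did pass with array weights (adjusted p = 0.0269), without the 3 spring libraries (0.0448) and in 5 of 48 fits without 1 library.

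The summer and mean curves of pcna were near the threshold. The summer call was lost in 22 of 48 fits that left out 1 library, with amplitudes between 0.17 and 0.20 there and adjusted p between 0.0503 and 0.144, and also with a pseudocount of 0.1 (adjusted p = 0.0525), without the filter (0.0656) and under both scalings (0.0877 and 0.058). The mean curve was lost without the 3 spring libraries (adjusted p = 0.0604), under scaling by median ratios (0.0633), and in 6 of 48 fits without 1 library: library 1 of spring at hour 2 or at hour 14, library 2 of summer at hour 14, library 1 of autumn at hour 2, library 2 of autumn at hour 14 and library 2 of winter at hour 2, with amplitudes of 0.09 to 0.10. The autumn curve was lost without library 1 at hour 2 (0.20, adjusted p = 0.0565) or library 2 at hour 14 of autumn (0.19, adjusted p = 0.0736).

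The gene mcm6, below the filter, had a daily profile in summer. Its summer values were 0.75 and 0.89 FPKM at hour 2, 1.25 and 1.19 at hour 6, 1.39 and 1.82 at hour 10, 0.95 and 1.08 at hour 14, 0.96 and 1 at hour 18, and 0.74 and 0.81 at hour 22. The 2 libraries at hour 10 were the highest of the season and those at hours 2 and 22 the lowest. In spring and winter the hour 10 means were both 0.415 FPKM, against 0.575 and 0.675 FPKM at hour 22. In the fit without a filter the summer curve had an amplitude of 0.24 ± 0.04 and a peak at 9.92 h (adjusted p = 0.000365; 8.85% of 26167 genes were called), and the seasonal curves of mcm6 differed (adjusted p = 0.000809; 12.4% of genes called). Both calls were kept in all 53 alternative fits. The curves of autumn, winter and spring were not called singly (adjusted p = 0.15, 0.297 and 0.553). In summer mcm5 was also highest at hour 10, with 1.53 and 1.42 FPKM, but its curve did not pass (amplitude 0.23 ± 0.07, peak at 8.69 h, adjusted p = 0.0716). The curves of mcm2, mcm3, mcm4, mcm7 and mcm3ap were not called in any season.

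**Figure D4:**
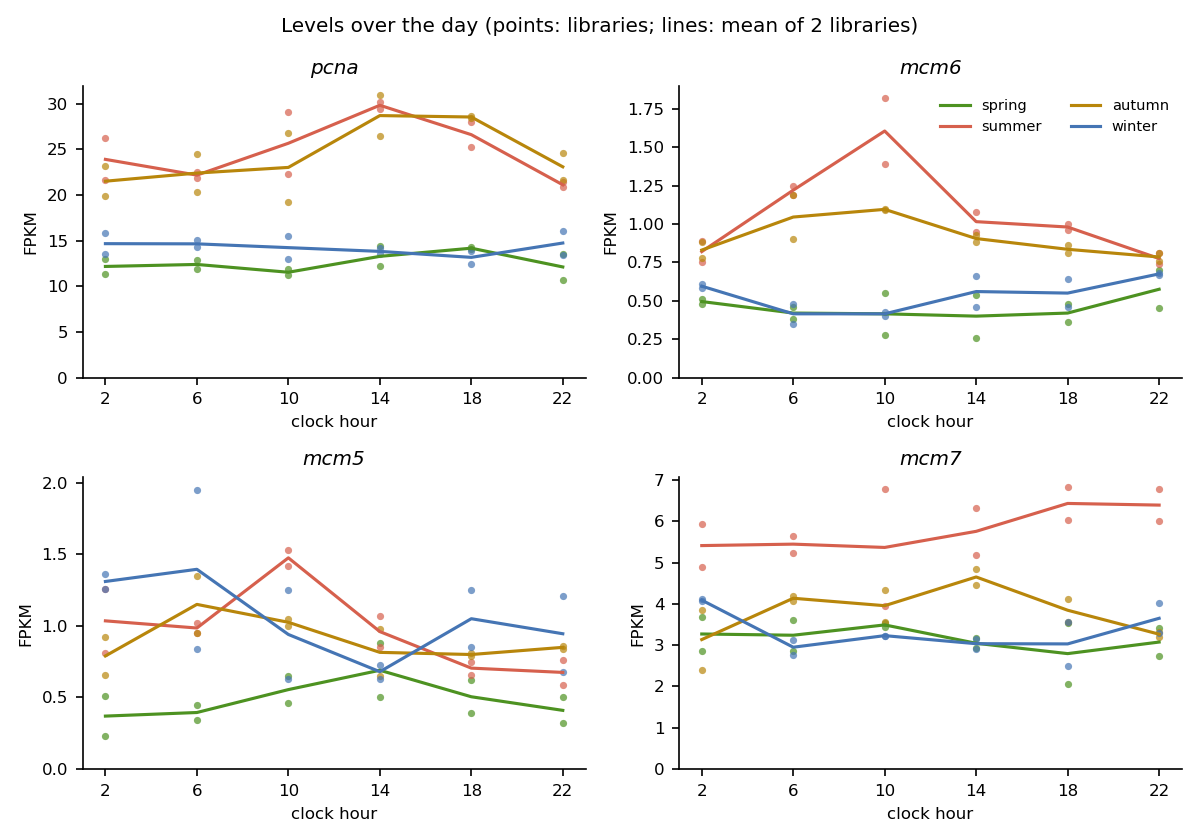
FPKM of pcna, mcm6, mcm5 and mcm7 (vertical axes, from 0) by clock hour (horizontal axes), with a point per library and a line through the mean of the 2 libraries in each season. In summer and autumn pcna is highest at hours 14 and 18, and mcm6 in summer is highest at hour 10.

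The means of the 24 groups of season and hour carry the season differences, so genes with the same seasonal course correlate there by construction. Pearson's r of the log2 group means was 0.88 between pcna and mcm3, 0.83 between pcna and mcm6 and 0.80 between pcna and mcm3ap. It was 0.84 between mcm7 and mcm3ap, 0.73 between mcm2 and mcm5 and -0.47 between mcm4 and mcm3ap. A correlation without subtraction of the mean was taken over the 24 differences between the 2 libraries of a group, which carry no season or hour. It was 0.75 between mcm2 and mcm5 and 0.53 between mcm3 and mcm7, while pcna had values between -0.17 and 0.23 with the 7 others. These values share libraries and are given with no test. Over all other tested genes, the group means most like those of pcna belonged to LOC101167259, annotated as aldo-keto reductase family 1 member B10 (r = 0.98), LOC101166844, a ribonucleoside-diphosphate reductase subunit M2-like gene (r = 0.97), and the kinesin-1 heavy chain gene LOC101155960 (r = 0.97). Those most like the mean profile of the 4 tested helicase subunits were LOC101155970, the platelet type 6-phosphofructokinase (r = 0.91), and LOC101163992, a rap1 GTPase-activating protein 2 (r = 0.86). That profile averages mcm2, mcm3, mcm4 and mcm7, which did not follow 1 course. Between them r ranged from -0.43 (mcm7 and mcm4) to 0.63 (mcm7 and mcm3).

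Relatives outside the replicative ring behaved differently from one another. MCM8 and MCM9 act in homologous recombination, and mcm8 was lower in summer and autumn: it averaged 4.21 ± 0.813 FPKM in spring, 2.18 ± 0.414 in summer, 2.19 ± 0.849 in autumn and 5.23 ± 0.706 in winter (SD, n = 12 each), a difference of -0.86 ± 0.07 between summer and autumn and spring and winter (adjusted p = 8.62e-12). The transcript of mcm9 averaged 0.385, 0.668, 0.504 and 0.628 FPKM in the order of the seasons. Its difference between summer and autumn and spring and winter was 0.08 ± 0.03 and was not called (adjusted p = 0.0513, no filter), while summer exceeded spring by 0.27 ± 0.05 (adjusted p = 3.36e-05) and winter exceeded spring by 0.23 ± 0.05 (adjusted p = 0.000668). The related gene mcmdc2 was above 0 in 33 of 48 libraries, with means of 0.0325, 0.188, 0.157 and 0.0267 FPKM, and was higher in summer and autumn by 0.17 ± 0.04 (adjusted p = 0.000198, no filter). Without a filter its daily curve was called in summer (amplitude 0.19 ± 0.05, adjusted p = 0.0348, with 8.85% of all genes called). Its autumn curve was called as well (0.20 ± 0.05, adjusted p = 0.0224, with 16.1% of tested genes called in the fit with the filter). The difference between its seasonal curves did not pass the test (adjusted p = 0.154). These levels are close to the floor and libraries of a group differed, as with 0.13 and 0.63 FPKM in autumn at hour 14. MCM10, which activates the helicase and is no ring subunit, also had a lower transcript level in summer and autumn in the fit without a filter (-0.29 ± 0.03, adjusted p = 2.56e-10), with means of 0.49, 0.306, 0.374 and 0.801 FPKM in the order of the seasons. By contrast mcmbp, whose product binds MCM subunits outside chromatin, averaged 1.03, 2.2, 2.4 and 1.48 FPKM and was higher in summer and autumn (0.55 ± 0.05, adjusted p = 2.05e-11). The PCNA-associated factor pclaf averaged 0.121, 0.791, 0.418 and 0.133 FPKM, higher in summer and autumn by 0.48 ± 0.05 (adjusted p = 7.76e-10, no filter). Its values of 0 to 0.42 FPKM in spring and 0 to 0.36 FPKM in winter are close to the floor. An uncharacterized noncoding RNA gene, LOC110015606, lies within pcna in the RefSeq gene table; it averaged at most 0.167 FPKM in any season and its seasonal difference was not called (adjusted p = 0.762).

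The wider replication and cell cycle machinery was described with 8 lists holding 119 genes, in the fit without a filter, since many fall below 1 FPKM. In that fit 37.1% of all genes were called higher and 27.2% lower in summer and autumn than in spring and winter, with a median difference of 0.01. Of 11 genes for licensing and helicase loading, 4 were higher and 4 lower (median -0.00). Higher were mcmbp, orc1, orc3 and cdt1, and lower were cdc6, cdc7 and 2 subunits of the origin recognition complex, orc4 (2.17 FPKM in summer and autumn, 5.16 in spring and winter) and orc5 (4.40 and 7.70 FPKM). Of 9 partners of the helicase at the fork, 6 were higher and 3 lower (median 0.17). The GINS subunit gins2, part of the active helicase, stood at 2.06 FPKM in summer and autumn against 0.282 FPKM in spring and winter (1.26 ± 0.04, adjusted p = 1.4e-19), and cdc45, its partner, at 0.217 against 0.0796 FPKM (0.17 ± 0.02, adjusted p = 1.2e-09).

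Of 12 replicative polymerase genes, 8 were higher and 3 lower (median 0.13), and of 12 genes of the clamp loader and lagging strand, 7 were higher and 2 lower (median 0.19). The clamp loader's large subunit rfc1, which places PCNA on DNA, had 3.26 against 2.18 FPKM (0.41 ± 0.02, adjusted p = 1.8e-14), while rfc3 and rfc4 were not called (-0.05 and 0.02). The ligase gene lig1, which joins Okazaki fragments, was lower at 12.8 against 16.6 FPKM (-0.34 ± 0.05, adjusted p = 4e-07). Of 9 nucleotide supply genes 6 were higher and 3 lower (median 0.23), and of 10 genes of replication-coupled chromatin 7 were higher and 1 lower (median 0.35). Of 23 genes of G1 and S phase control 9 were higher and 9 lower (median -0.02), among them the transcription factors e2f3, higher at 1.83 against 0.649 FPKM (0.82 ± 0.06, adjusted p = 1.2e-12), and e2f1, lower at 0.522 against 1.77 FPKM (-0.86 ± 0.03, adjusted p = 3.9e-19).

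Of 33 mitosis genes, 22 were higher and 5 lower (median 0.14). The topoisomerase top2a, which untangles sister chromatids, had 0.822 against 0.218 FPKM (0.56 ± 0.03, adjusted p = 2.5e-16), the mki67 gene LOC101173508, of the proliferation marker Ki-67, 0.651 against 0.283 FPKM (0.34 ± 0.02, adjusted p = 1.3e-12), and the mitotic cyclin ccnb1 0.422 against 0.0729 FPKM (0.39 ± 0.03, adjusted p = 3.3e-11). The 5 lower genes were smc4, ncapd2 and ncapg of the condensin complex, nusap1 and 1 of 2 birc5 genes, LOC101168459. Among the 8 mitosis genes above the filter 4 were higher and 4 lower, where 47.2% of all tested genes were called higher and 32.2% lower. The larger count of 22 thus rests on genes below 1 FPKM. Of the 4 higher, kif11 (1.45 against 0.567 FPKM) and ect2 (1.69 against 0.893 FPKM) passed the filter through their summer and autumn values. The pooled seasons also hide a difference, as the median summed level of the list was highest in summer. The medians were 29.2 FPKM in spring, 37.5 in summer, 27.6 in autumn and 30.6 in winter. The ranges overlapped, at 23.0 to 35.7, 31.4 to 47.6, 23.6 to 36.6 and 23.7 to 44.8 FPKM in that order. Abundant genes weigh most in this sum, as cdk1 averaged 6.87, nusap1 4.76 and ncapd2 2.58 FPKM over all libraries. Of the 8, summer minus autumn called 4 higher and 0 lower (19.4% and 24.2% of all tested genes). Autumn minus winter called 3 higher and 4 lower (42.4% and 29.3%). With the filter the licensing list had 2 higher and 4 lower of 8, nucleotide supply 3 and 3 of 6, and G1 and S phase control 7 and 7 of 16. These too stand against 47.2% higher and 32.2% lower among all tested genes. Some of their genes passed the filter only through the seasons where they were high. Examples are e2f3 and LOC101166844 (2.59 against 0.990 FPKM) in summer and autumn, and e2f1 and cdc7 (0.893 against 2.11 FPKM) in spring and winter. Scaling by median ratios turned the median of the nucleotide list to -0.04, against 0.02 as deposited, and left 4 of 10 polymerase genes higher in place of 7.

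**Figure D5:**
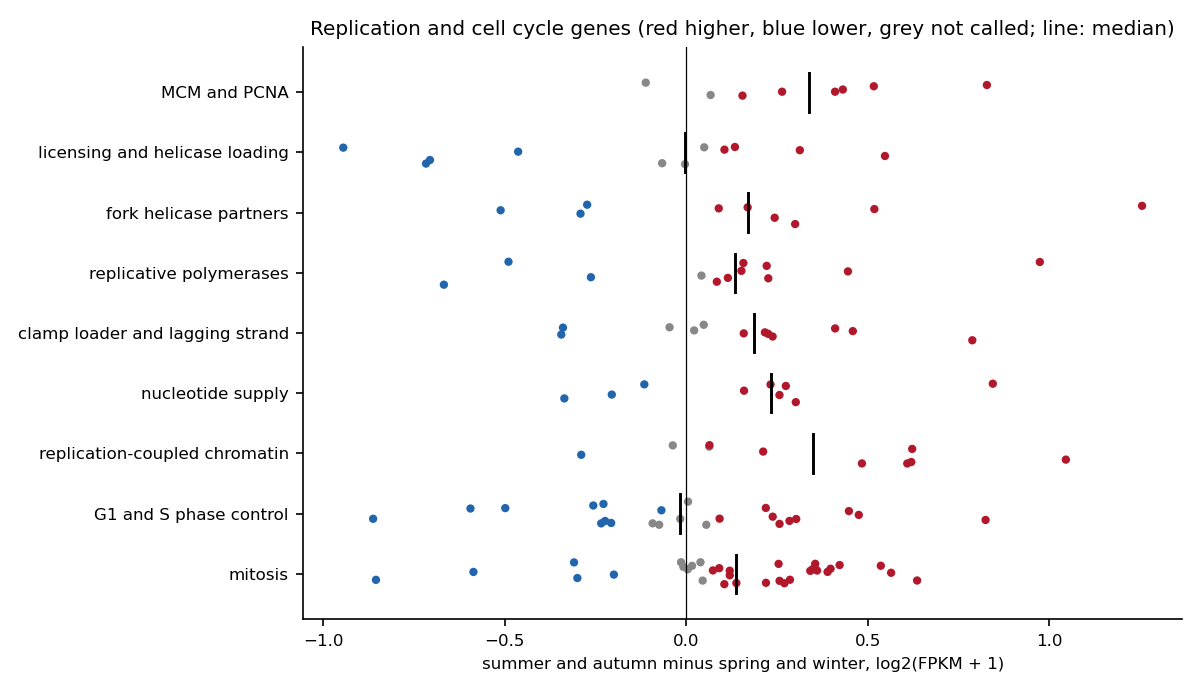
Difference between summer and autumn and spring and winter on the log2(FPKM + 1) scale (horizontal axis) for each MCM and PCNA gene and each gene of the 8 lists, from the fit without a filter; red is called higher, blue lower, grey not called, and the black line is the median. Every list holds genes on both sides of 0, and the median of the MCM and PCNA genes is 0.34.

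Markers of several cell types moved with the same seasons, in a comparison where 47.2% of all tested genes were called higher and 32.2% lower. Of the 19 tested neuron markers 15 were higher and 1 lower in summer and autumn, and their summed level ranged from 3002 to 3699 FPKM in summer and 3003 to 3299 FPKM in autumn, against 2515 to 3026 FPKM in spring and 2520 to 2909 FPKM in winter. Of the 14 tested radial glia markers 11 were higher and 2 lower in summer and autumn, and the summed level of the list ranged from 1764 to 2606 FPKM in summer and 1672 to 2117 FPKM in autumn, against 1264 to 1569 FPKM in spring and 1263 to 1615 FPKM in winter. The radial glia sum is largely set by abundant genes. Over all libraries glul averaged 506, fabp7 400 and slc1a2 304 FPKM, against 14.6 FPKM for vim. Red blood cell markers summed to 762 to 1833 FPKM in summer and 837 to 1573 FPKM in autumn, against 276 to 485 FPKM in spring and 413 to 1086 FPKM in winter, with 5 of 7 tested higher and 2 lower. Myelin markers were higher in 8 of 10 tested genes, with sums of 559.7 to 791.6 FPKM in summer and 734 to 1041 FPKM in autumn, against 289.6 to 402.0 FPKM in spring and 267 to 364 FPKM in winter. The summed microglia and macrophage markers ran the other way, at 363 to 620 FPKM in summer and 358 to 504 FPKM in autumn, against 703 to 1144 FPKM in spring and 619 to 908 FPKM in winter, although 8 of 14 tested genes were higher and 4 lower, shares near those of all genes. That sum is largely set by a few abundant genes. LOC101161673, matched as apoeb, averaged 419 FPKM over all libraries, and the mpeg1 gene LOC101165946 averaged 122 FPKM. Pituitary markers were higher in 6 and lower in 1 of 10 tested genes, with sums of 2150 to 3381 FPKM in summer and 2146 to 4269 FPKM in autumn, against 2093 to 5671 FPKM in spring and 2354 to 4415 FPKM in winter. Endothelial markers were higher in 3 and lower in 2 of 8, with sums of 38.8 to 50.5 FPKM in summer and 44.0 to 51.6 FPKM in autumn, against 44.5 to 54.4 FPKM in spring and 41.5 to 54.8 FPKM in winter. Of 2 tested lymphocyte markers 1 was higher and 1 lower, with sums of 15.5 to 30.2 FPKM in summer and 15.8 to 26.8 FPKM in autumn, against 22.7 to 41.4 FPKM in spring and 15.1 to 27.9 FPKM in winter. None of the matched markers of these lists was at 0 in all libraries. The part of these cells in the seasonal levels of pcna and the MCM genes was not tested.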

How the data were processed

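RNA was measured in 48 libraries, poly-A selected, strand-specific and paired-end per the labels' protocols. The authors deposited FPKM values for 26167 genes. Per the submitters' processing notes the tools included RSEM 1.2.12 and Bowtie2 2.2.5, and the genome build is not given in the sources used here. Gene IDs were matched to RefSeq names for 25080 genes, and names of the assembly ASM223467v1 were used for names and neighbours alone. Closely related copies may share reads.

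Values were taken as log2(FPKM + 1) and genes of mean FPKM at least 1 were tested. limma 3.58.1 in R 4.3.3 was fitted over 24 season-by-hour groups (24 residual degrees of freedom) for season differences and over a 24 h cosine in each season for daily curves, with a trend in the prior variance and Benjamini-Hochberg adjustment over all genes. The code was tested on simulated data. Sums and shares were computed from FPKM in Python. Every gene matched by the rule is named, and the most alike genes were ranked by correlation of group means.

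Members and lists were chosen with earlier results of these data known. Product names were used to match 43 list genes after symbols had been tried. Alternatives were a pseudocount of 0.1, no filter, quantile normalization, scaling by median ratios, limma's array weights, season plus hour, each pair of seasons alone, each library left out, and leaving out 3 spring libraries that stand apart from the other spring libraries.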

Additional observations from a re-analysis of the deposited data

Results flagged for a closer look

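The daily curve of mcm6 differed between the seasons in a test of that difference (limma over all 26167 genes, adjusted p = 0.000809). The summer libraries peaked at hour 10 with 1.39 and 1.82 FPKM, while spring and winter had their highest means at hour 22, with 0.575 and 0.675 FPKM. The curves of spring and winter were not called singly (adjusted p = 0.553 and 0.297). In spring the libraries overlapped, with 0.45 and 0.70 FPKM at hour 22 and 0.55 and 0.28 FPKM at hour 10. The adjusted p was between 0.000251 and 0.00592 in 53 alternative fits, and it was 0.0019 and 0.00263 without either of the summer libraries at hour 10.

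The daily curve of pclaf differed between the seasons as well (adjusted p = 0.0192), in the same test, where 12.4% of 26167 genes were called. In summer pclaf was highest at hour 6 in 1 library with 1.70 FPKM and at hour 10 in another with 1.44 FPKM, while the second libraries of those hours had 0.86 and 0.77 FPKM. The call was lost with a pseudocount of 0.1 (adjusted p = 0.268) and without library 1 of summer at hour 6 (adjusted p = 0.0778). In 6 of 48 libraries, all from spring or winter, pclaf is listed at 0.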

How the results depend on the processing

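For the 8 MCM and PCNA genes, no called season difference was reversed under the alternatives run. The alternatives were not run for mcm8, mcm9, mcmdc2 and LOC110015606. The replication and cell cycle list genes, with mcmbp, mcm10 and pclaf among them, were run for summer and autumn minus spring and winter alone. For pclaf the summer curve and the difference between seasonal curves were run as well. Apart from pclaf, the results of single list genes under the alternatives are not given here. For the 8 genes, season differences kept their side of the threshold in 458 of 480 results under other settings and in 3034 of 3072 with 1 library left out. No paired analysis was possible because the labels give no replicate numbers within a season and hour, and the numbers used here follow the order of the samples alone.

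The counts of called genes that moved were those near the threshold. The count for the daily curve in summer, 1 gene, was 0 with a pseudocount of 0.1, under scaling by median ratios and under quantile normalization. The count for spring minus autumn, 5 genes, was 3 under scaling by median ratios and 3 under quantile normalization. That for the mean daily curve, 1 gene, was 0 under scaling by median ratios and 0 without the 3 spring libraries. That for winter minus spring, 2 genes, was 1 without these libraries. The count of genes whose daily curves differ between seasons, 0, was 1 without the filter (mcm6), 2 with array weights (pcna and mcm7) and 1 without the 3 spring libraries (pcna). Among the 6 tested genes, pcna, mcm3 and mcm7 had an unadjusted p below 0.05 for it (0.0207, 0.0205 and 0.0167).

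With each library left out in turn, the counts ranged from 5 to 6 for summer minus winter, 5 to 5 for spring minus autumn, 4 to 6 for summer minus spring, 3 to 3 for summer minus autumn, 3 to 4 for autumn minus winter, 1 to 3 for winter minus spring and 4 to 5 for summer and autumn minus spring and winter. They were 6 to 6 for any season, 0 to 1 for the mean daily curve, 0 to 0 for spring, 0 to 1 for summer, 0 to 2 for autumn and 0 to 0 for winter curves, and 0 to 2 for differing curves.

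Scaling by median ratios brought the median difference of all tested genes between summer and autumn and spring and winter to 0.00, against 0.06 as deposited, and that of the 6 genes to 0.28, against 0.35. The depth of each library in reads is not known, and no counting error was computed for the low levels of mcm5, mcm6 and pclaf. The low values of pclaf fell in steps of about 0.09 FPKM. Its spring and winter levels, at most 0.42 and 0.36 FPKM, thus rest on few fragments per library.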
